A study of Mus musculus with 3 samples.

Results

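CD8 alpha-beta T cells with Cd8b1 were followed in the epithelium of the mouse small intestine, as barcodes that held at least 1 UMI (unique molecular identifier, a count of 1 captured RNA molecule) of Cd8b1, the gene of the CD8 beta chain. A barcode was a member, called a Cd8b1 T cell from here on, if it held 800 to 50000 UMIs, at most 40% UMIs of mitochondrial genes, at least 2 UMIs of Cd3e, Cd3d and Cd3g together, no UMI of Trdc and less than 2% of its UMIs from the enterocyte genes Apoa1, Apoa4, Fabp1, Rbp2 and Alpi. Of the 27235 barcodes in the 3 libraries, 16774 lay within the limits on UMIs and mitochondrial share, 1425 of these also met the limits on Cd3 and enterocyte UMIs and are called T cells here, and 333 of the T cells were members.

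The CD8 coreceptor binds MHC class I beside the T cell receptor, either as a heterodimer of an alpha and a beta chain or as a homodimer of alpha chains. Conventional cytotoxic T cells carry the heterodimer, and in the gut they enter the epithelium from the circulation after activation in lymphoid tissue. The intraepithelial compartment also holds gamma-delta T cells and unconventional alpha-beta T cells, many of which carry only the alpha homodimer and natural killer type receptors.

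The 3 libraries, of duodenum, jejunum and ileum, came from male C57BL/6N wildtype mice aged 12 weeks for which no treatment is named, with 1 library per segment and the cells of 3 mice pooled. Epithelial cells and the immune cells among them were released with EDTA and DTT, spun down at low speed and sorted as single cells negative for propidium iodide, without a gate for T cells. The share of T cells can therefore be set by isolation and sort, and with 1 pooled library per segment neither the segment nor the mouse has a replicate. Of the segment labels, that of the ileum could be set beside Fabp6, an ileal bile acid binding protein. Fabp6 had 0 UMIs in Cd8b1 T cells of the duodenum and the jejunum and a level of 23.1 UMIs per 10000 UMIs in ileal ones. It cannot tell duodenum from jejunum, and the 0 in the 4 duodenal cells allows a level of up to 2.41.

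Nearly all Cd8b1 T cells came from the ileum. The duodenum had 4 (0.0934% of its barcodes within the limits, exact binomial 95% interval 0.0255% to 0.239%), the jejunum 17 (0.388%, 0.226% to 0.621%) and the ileum 312 (3.85%, 3.44% to 4.29%). Among T cells, they made up 8.16% of 49, 12.1% of 140 and 25.2% of 1236 cells in the same order. Intervals cover counting error only, and no test was made between segments. The libraries held 78074516 to 98518847 UMIs in all, and the summed members 12456, 55592 and 1366952 UMIs from duodenum to ileum. The median member held 3315.5, 3509 and 3887.5 UMIs and 1390.5, 1593 and 1652.5 genes, with 3.99%, 5.02% and 5.42% mitochondrial UMIs. Between 20 and 28 barcodes were shared by any 2 libraries, and 3 members carried such a barcode.

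The values that chose the members are given as a description. Cd8b1 had a median of 4 UMIs and at most 17 in a member, with 1 UMI in 61 members and 2 or more in 272. The 3 Cd3 genes together had a median of 13 UMIs, and 17 members stood at the minimum of 2. The members nearest the other limits held 853 and 32352 UMIs, 38.1% mitochondrial UMIs and 1.97% enterocyte UMIs. Of the barcodes that failed a single criterion, 65 had 1 Cd3 UMI, 30 had a Trdc UMI, 21 had too many enterocyte UMIs, the nearest with 2.28%, 1 had too many UMIs with 52693, and 451 had no Cd8b1 UMI.

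Those 451 barcodes were split for comparison into 189 Cd8a T cells without Cd8b1, which had a Cd8a UMI, and 262 T cells without Cd8, which had a UMI of neither Cd8 gene. The third class was the 611 Trdc T cells, which held a UMI of Trdc, the constant gene of the delta chain, and none of Cd8b1. A missing UMI does not show a missing gene, so some cells of each comparison class may belong to another. Median depths were 3837 UMIs in Cd8b1 T cells, 4284 in Trdc T cells, 3672 in Cd8a T cells without Cd8b1 and 3590.5 in T cells without Cd8. In bulk sums such as these, fewer cells with a gene and less RNA per cell cannot be told apart.

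RNA of other cell types stood out in a few ileal members. Of the 312, 9 barcodes held more than 100 UMIs of at least 1 of Zg16, Igkc, Gcg, Fabp6 and Cd74, genes of goblet cells, plasma cells, enteroendocrine cells, ileal enterocytes and antigen-presenting cells, against 22 of 514 ileal Trdc T cells, 5 of 155 Cd8a T cells without Cd8b1 and 20 of 229 T cells without Cd8. A single ileal member held 4923 of 4997 Igha UMIs and 11668 of 11855 Igkc UMIs, and a pair of them held 9692 and 5759 of 16708 Zg16 UMIs. Without the 9 barcodes, the ileal level of Zg16 went from 122 to 9.93 UMIs per 10000, that of Igha from 36.6 to 0.57 and that of Igkc from 86.7 to 1.5. Calls of Igha and Igkc in the comparisons below rest on that barcode and are not read as T cell expression.

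The label was first set beside Cd8a, Trac and Ms4a4b, marker genes that the rule did not use. They were chosen with earlier results of these data known, so they describe the members and are not an independent check. Cd8a (ENSMUSG00000053977, chromosome 6 of GRCm38, 71373427 to 71379173), which codes for the CD8 alpha chain and lies near Cd8b1 (ENSMUSG00000053044, 71322788 to 71337494), had a UMI in 311 of 333 members. In UMIs per 10000, its level was 8.83 (exact Poisson 95% interval 4.41 to 15.8) in duodenal members, 8.63 (6.37 to 11.4) in jejunal and 10.6 (10.1 to 11.2) in ileal ones. The 3 segments did not differ beyond these intervals, and Cd4, the coreceptor of helper T cells, had a UMI in 1 member.

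Trac (ENSMUSG00000076928, chromosome 14, 54220521 to 54224206), the constant gene of the alpha chain of the T cell receptor, was found in 4 of 4, 10 of 17 and 257 of 312 members. Its level was 10.4, 3.6 and 5.54 UMIs per 10000 in the same order, against 2.46, 3.1 and 2.28 in Trdc T cells. Trac thus had UMIs in Trdc T cells too, and the difference was not called (log2 fold change 0.83 ± 0.29 (SE), edgeR adjusted p = 0.262). Of the beta chain constant genes, Trbc2 was found in 292 and Trbc1 in 188 of the 312 ileal members, with UMIs of both in 179 and of neither in 11. Of 15 genes of the T cell receptor complex and coreceptors, 9 were tested against Trdc T cells. Among them 0 were called higher in members and 1, Tcrg-C1, lower, beside 1.95% called of all genes tested. Their median log2 fold change was −0.16 against −0.03 over all genes tested.

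Ms4a4b (ENSMUSG00000056290, chromosome 19, 11443553 to 11467055), a membrane protein of T cells, was higher in members than in Trdc T cells. It had UMIs in 3 of 4, 14 of 17 and 257 of 312 members, at 11.2, 8.63 and 6.55 UMIs per 10000 from duodenum to ileum. In Trdc T cells the level was 0.0946, 0.836 and 1.03, in Cd8a T cells without Cd8b1 5.34, 0.729 and 1.95, and in T cells without Cd8 4.21, 6.34 and 4.67. Members were above Trdc T cells in every library. With every cell thinned to 800 UMIs, Ms4a4b was found in 44.1% of members (82.3% before thinning), 8.35% of Trdc T cells, 19.6% of Cd8a T cells without Cd8b1 and 31.7% of T cells without Cd8.

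The same genes were rare in barcodes of another cell type. In 356 ileal enterocyte barcodes with a median of 6283 UMIs, thinned in the same way, Cd8b1, Cd8a and Trac were each found in 0.281%, Ms4a4b and Itgae in none, Lat in 0.562% and Fcer1g in 0.843%. The abundant transcripts were found there more often, with Gzma in 1.69% and Ccl5 in 3.93%.

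**Figure D1:**
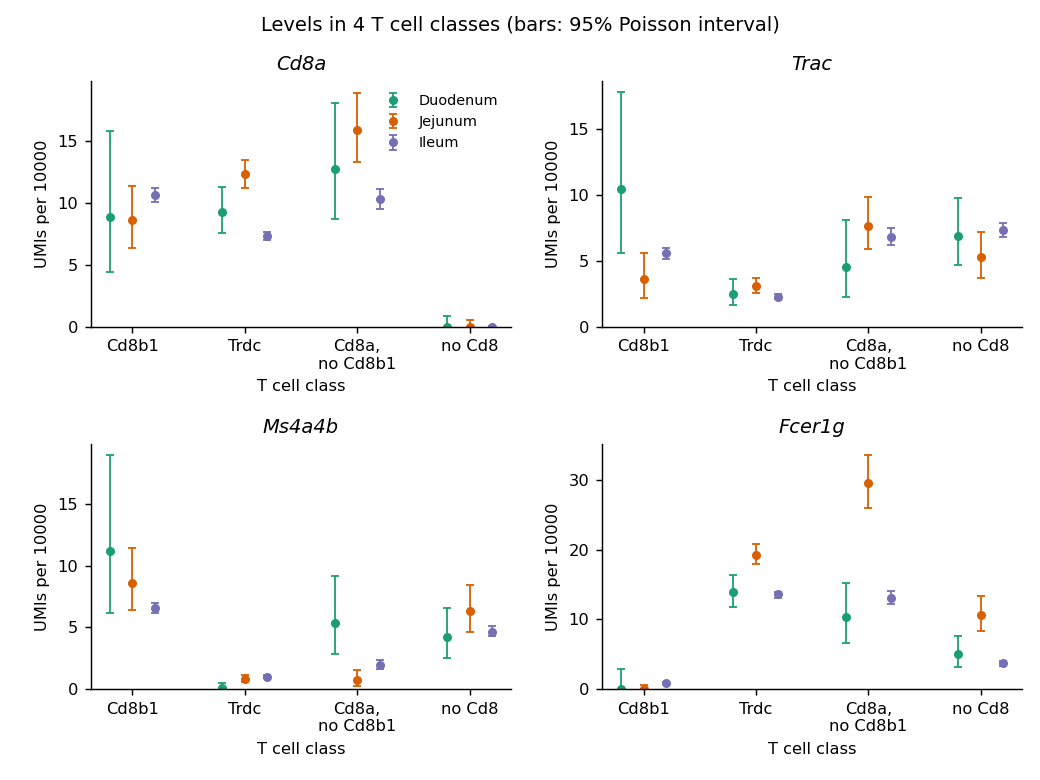
Level of Cd8a, Trac, Ms4a4b and Fcer1g in 4 T cell classes of each library, in UMIs per 10000, where bars are exact Poisson 95% intervals. Cd8a UMIs were used to define Cd8a T cells without Cd8b1 and T cells without Cd8. Ms4a4b was at 6.55 to 11.2 in Cd8b1 T cells and at most 1.03 in Trdc T cells, while Fcer1g was at 0 to 0.922 in Cd8b1 T cells and at 13.6 to 19.3 in Trdc T cells.

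The first comparison asked how Cd8b1 T cells differ from the gamma-delta lineage of the same epithelium. UMIs were summed per library and class and fitted with edgeR, with the library as a block and sums of at least 10 cells, so the members entered with the jejunal and the ileal sum and the 4 duodenal members did not. Against Trdc T cells, 24 genes were higher and 24 lower in Cd8b1 T cells, 48 of 2465 tested (1.95%, or 0.974% in each direction) at a Benjamini-Hochberg adjusted p under 0.05. Among the genes higher in members were Cd5, Cd6 and Cd28, receptors that tune T cell activation, and among those lower the gamma chain constant gene Tcrg-C1 and natural killer type receptors and adaptors.

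Of 20 genes of T cell signalling and costimulation, 19 were tested, 6 were higher and none lower, with a median log2 fold change of 0.39 against −0.03 over all genes tested. Cd6, a scavenger type receptor that tunes T cell receptor signals, stood at 1.61 UMIs per 10000 in duodenal, 1.26 in jejunal and 1.96 in ileal members, against 0, 0.0809 and 0.0877 in Trdc T cells (log2 fold change 4.50 ± 0.47, edgeR adjusted p = 5.23e-05). Cd5, which dampens T cell receptor signals, was at 0, 0.72 and 1.09 against 0, 0.027 and 0.0343 (4.99 ± 0.62, adjusted p = 0.000233). Every tested member library lay above every Trdc library for both genes.

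Cd28, the costimulatory receptor for CD80 and CD86, was at 2.41, 1.44 and 0.666 UMIs per 10000 in members and at 0, 0.162 and 0.0191 in Trdc T cells (4.38 ± 0.49, edgeR adjusted p = 0.000101). Cd2, an adhesion receptor, was higher by 2.70 ± 0.34 on the log2 scale (adjusted p = 0.000263). Thy1, a surface glycoprotein of T cells, was higher by 1.91 ± 0.30 (adjusted p = 0.00158). Lat, the adaptor that links the T cell receptor to its downstream enzymes, was at 4.82, 5.22 and 5.25 against 0.662, 1.62 and 1.73 (1.69 ± 0.23, adjusted p = 0.000433). Its intervals in members, 3.49 to 7.49 in the jejunum and 4.88 to 5.65 in the ileum, lay above those in Trdc T cells.

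Genes of circulating, naive and memory T cells showed the same direction. Of 24, 13 were tested, 6 were higher and none lower, with a median of 1.52 against −0.03 over all genes. Beside Ms4a4b (3.15 ± 0.44, edgeR adjusted p = 0.000506) and its relative Ms4a6b (1.72), these were Il7r, the IL-7 receptor alpha chain, the integrin genes Itgal and Itga4, and Klf2, a transcription factor of recirculating T cells. Il7r was at 0 in the 4 duodenal members, 3.06 in jejunal and 2.85 UMIs per 10000 in ileal members, against 0.189, 0.621 and 0.538 (2.48 ± 0.42, adjusted p = 0.00272).

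Klf2 was at 4.01, 6.48 and 1.7 UMIs per 10000 in members and at 0, 0.567 and 0.637 in Trdc T cells (2.23 ± 0.55, edgeR adjusted p = 0.0454). It was not spread evenly, since 34 of the 36 jejunal UMIs came from 1 cell, and DESeq2 gave an adjusted p of 0.848 and the fit on thinned cells one of 0.0672. Among genes of other groups, Icos, a costimulatory receptor, was higher by 2.34 ± 0.48 (adjusted p = 0.0139), Ctla4, an inhibitory receptor, by 2.05, and Gzmk, a granzyme, by 1.56 (adjusted p = 0.0269). Gm8369, a gene without a known role, was higher by 3.0 ± 0.40.

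Natural killer type receptors and adaptors went the other way. Of 23, 9 passed the filter on low counts, 5 were lower and 1 higher, with a median of −3.37. Fcer1g (ENSMUSG00000058715, chromosome 1, 171229572 to 171234365), a signalling adaptor of Fc and natural killer receptors, had no UMI in duodenal and jejunal members, which allows a level of up to 2.41 and 0.54 UMIs per 10000, and was at 0.922 in ileal members. Trdc T cells held 14, 19.3 and 13.6 UMIs per 10000 (−4.20 ± 0.50, edgeR adjusted p = 0.00017). Members lay below Trdc T cells in each of the 3 libraries.

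Tyrobp, the adaptor DAP12, was at 0, 0 and 0.454 UMIs per 10000 in members against 5.01, 7.96 and 4.07 (−3.37 ± 0.46, edgeR adjusted p = 0.000433). Klrd1, the CD94 subunit of NKG2 receptors, was at 0.803, 0.36 and 1.7 against 11.2, 8.58 and 11.2 (−2.995 ± 0.55, adjusted p = 0.0059). Klrb1a was lower by 3.82 ± 0.89 on the log2 scale (adjusted p = 0.0347). Klra5, a Ly49 receptor, had 0 UMIs in all members and 96 in Trdc T cells, and was at least 14.8-fold lower against a floor of 3 UMIs over the group. The 1 gene of the list that was higher was Cd226, an activating receptor shared with conventional T cells (1.18, adjusted p = 0.0216).

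Ikzf2, the transcription factor Helios, was at 0, 0.36 and 1.15 UMIs per 10000 in members and 4.26, 7.66 and 6 in Trdc T cells (−2.53 ± 0.40, edgeR adjusted p = 0.00145). Il2rb, the shared receptor chain for IL-2 and IL-15, was lower by 1.82 on the log2 scale (adjusted p = 0.00177) and Lag3, an inhibitory receptor, by 1.87 (adjusted p = 0.00835). The other leading genes lower in members were Cd200r2 (−4.46), Gm156 (−4.02), Napsa (−3.61) and Lat2 (−3.37), the last an adaptor related to Lat. Each of the 4 had 0 UMIs in duodenal and jejunal members.

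**Figure D2:**
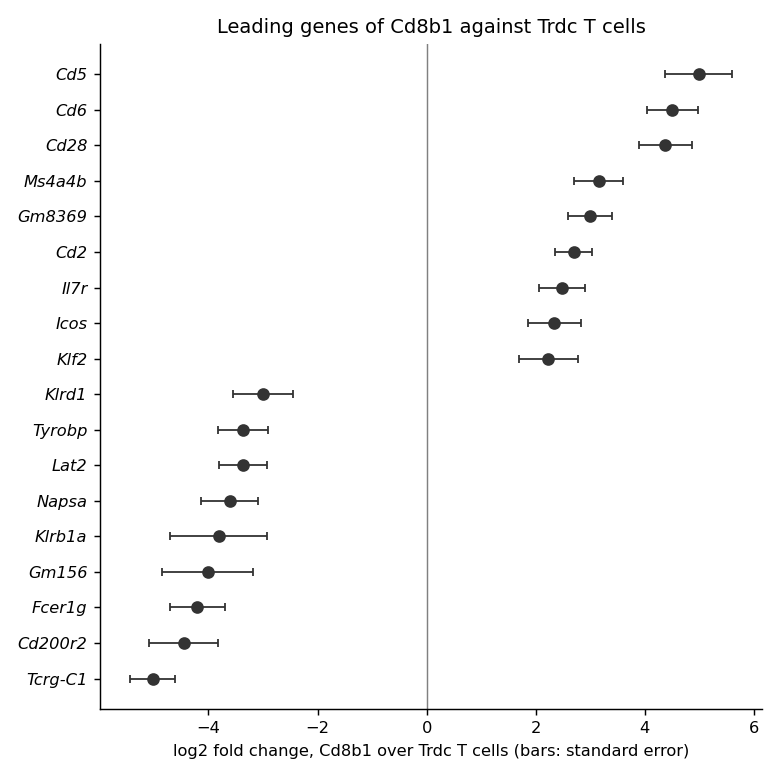
Log2 fold change with its standard error for 18 of the 20 leading genes of Cd8b1 T cells against Trdc T cells, from the edgeR fit on library sums (jejunum and ileum for members). Cd5, Cd6 and Cd28 lie above 4, and Tcrg-C1, Cd200r2, Fcer1g and Gm156 lie below −4. Klra5, with 0 UMIs in members, and Igha, from 1 barcode, are not drawn.

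By contrast, no call was made among genes of intraepithelial retention and residency. Of 20, 16 were tested, with 0 calls at this threshold and a median of −0.04 against −0.03 over all genes. Itgae, the integrin alpha E chain that binds epithelial E-cadherin, was at 4.82, 5.58 and 4.54 UMIs per 10000 in members against 5.58, 5.99 and 4.59 in Trdc T cells (−0.01 ± 0.25, edgeR adjusted p = 1). Cd160, a receptor of intraepithelial lymphocytes, was at 8.83, 6.66 and 5.54 against 2.08, 7.42 and 5.56 (0.10 ± 0.35). The jejunal and ileal values overlapped for both genes.

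Runx3, a transcription factor of the CD8 lineage (−0.06 ± 0.24), Itga1 (−0.07 ± 0.28), Cxcr6 (0.34 ± 0.24) and Ccr9, the receptor for the gut chemokine CCL25 (0.57 ± 0.30), were not called either. Among 20 cytotoxic effectors and cytokines, 14 were tested and Gzmk alone was called, with a median of −0.28. Ccl5, a chemokine of effector T cells, was at 403, 139 and 130 UMIs per 10000 in members against 188, 155 and 156 (−0.46 ± 0.43, edgeR adjusted p = 0.886). Gzma, granzyme A, was at 53.8, 44.4 and 52.2 against 186, 149 and 143 (−1.96 ± 0.73, adjusted p = 0.314). Gzmb was at 8.83, 8.63 and 8.92 against 43.3, 30.8 and 25.7 (−1.85 ± 0.61, adjusted p = 0.227). Both granzymes were lower in members in each library, with a spread between sums that left them above the threshold.

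In the simulated data of this comparison, where all genes had the same spread, 30% of genes changed by a log2 of 1 were recovered. Of those changed by a log2 of 2, 100% were recovered. Smaller differences could thus be missed. So could differences near a log2 of 2 in genes that vary more, such as Gzma and Gzmb, which were not called. Members entered with 2 sums, so a fit without the ileum or the jejunum left them 1 sum, assumed to vary like those of the other classes. Without the ileum most called genes named so far for this comparison lost their call. Tcrg-C1, Ms4a4b, Ms4a6b, Itga4, Klf2, Fcer1g, Tyrobp, Klrd1 and Ikzf2 kept it, each in the direction given. For Klf2 this rests on 1 jejunal cell, which held 34 of the 36 UMIs of that sum. Napsa could not be tested without the ileum, and the other called genes kept their direction only (log2 fold change of Il2rb −2.66, Cd226 1.36 and Igha 0.26). Without the jejunum 71 genes were called, and Cd226 (adjusted p = 0.418), Gzmk (0.147) and Itga4 (0.839) were not; DESeq2 did not call Cd226 (0.0753) or Itga4 (0.069), and with sums of at least 3 cells Itga4 (0.0862) was not called. Without likely doublets Cd226 (0.0561) and Ctla4 (0.067) were not called, nor were Cd226 (0.0812) and Itga4 (0.242) with at least 2 Cd8b1 UMIs. Without the duodenum, where only the other classes had sums, 175 of 7263 genes tested were called.

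The second comparison was with Cd8a T cells without Cd8b1, which can carry the alpha homodimer and in which a Cd8b1 UMI may also have been missed. Against them 8 genes were higher and 21 lower in Cd8b1 T cells, 29 of 2464 tested (1.18%, of which 0.325% higher and 0.852% lower). Of the 23 natural killer type genes, 9 were tested, 6 were lower and none higher, with a median of −3.81 against −0.001 over all genes.

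Fcer1g was at 10.3, 29.5 and 13.1 UMIs per 10000 in Cd8a T cells without Cd8b1 (log2 fold change −4.21 ± 0.50, edgeR adjusted p = 0.000569). Tyrobp was at 5.76, 16.2 and 4.77 (−3.81 ± 0.47, adjusted p = 0.000569). Klrb1a (−4.88 ± 0.89), Klre1 (−4.70 ± 1.05) and Klrd1 (−2.49 ± 0.54, adjusted p = 0.0281) were lower too, and Klra5, with 0 UMIs in members against 53, was at least 35.7-fold lower. In this class, which was defined without Trdc UMIs, jejunal and ileal Tyrobp lay above the 7.96 and 4.07 of Trdc T cells, while Fcer1g lay above them in the jejunum (19.3) and below in the duodenum (14) and the ileum (13.6).

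Ikzf2 was at 6.17, 7.17 and 7.11 UMIs per 10000 in that class (−2.66, edgeR adjusted p = 0.00292), and Il2rb (−2.14, adjusted p = 0.00227), Lag3 (−1.81) and Cd200r2 (−4.31 ± 0.68, adjusted p = 0.00381) were lower in members as well. Higher in members were Lat (1.40 ± 0.25, adjusted p = 0.00989), Thy1 (1.75 ± 0.34, adjusted p = 0.014), Gzmk (1.93 ± 0.42, adjusted p = 0.0281), Gm8369 (2.30 ± 0.48, adjusted p = 0.0233), the phosphatase gene Acp5 (1.77 ± 0.33, adjusted p = 0.0111) and Dusp2 (1.48 ± 0.27, adjusted p = 0.00989), a phosphatase induced by T cell activation. Without the jejunum 46 genes were called, and Lat (adjusted p = 0.313), Thy1 (0.0679), Gzmk (0.0702), Acp5 (0.0509), Dusp2 (0.113), Klrd1 (0.114) and Lag3 (0.171) were not. With cells thinned to 800 UMIs Lat was not called (0.78, adjusted p = 0.38 by edgeR). DESeq2 did not call Gm8369 (0.102), Dusp2 (0.0686), Klre1 (0.642) or Lag3 (0.13).

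Signalling genes numbered 19 tested, 2 higher and 0 lower, with a median of 0.48, and residency genes 16 tested and 0 called, with a median of −0.06. Ms4a4b (1.93 ± 0.48, edgeR adjusted p = 0.0684), Il7r (1.77 ± 0.48, adjusted p = 0.097) and Cd6 (1.61 ± 0.44, adjusted p = 0.097) did not pass the threshold. Of the 13 circulation genes tested, 0 were called, with a median of 1.23. Itgae (−0.02 ± 0.25), Cd160 (−0.12 ± 0.38) and Runx3 (−0.07 ± 0.25) again differed by less than their error. A call of Gcg, the proglucagon gene, came from Cd8a T cells without Cd8b1 and from a gene of enteroendocrine cells (26 UMIs in members, 1122 in the other class). Without the ileum 4 genes were called, among them Fcer1g, Tyrobp and Ikzf2, and the adjusted p of the other called genes named here was 0.095 (Klrd1) to 0.995 (Gcg).

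The third comparison was with T cells without Cd8, in which Cd4 had UMIs in 75 of 262 cells. Against them 33 genes were higher and 53 lower in Cd8b1 T cells, 86 of 2464 tested (3.49%, of which 1.34% higher and 2.15% lower). Of the residency genes, 16 were tested, 9 were higher and none lower, with a median of 1.21 against −0.03 over all genes.

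Itgae was at 2.44, 1.52 and 1.2 UMIs per 10000 in T cells without Cd8 (log2 fold change 1.71 ± 0.27, edgeR adjusted p = 0.00209). After thinning it was found in 29.7% of members (77.5% before) and 9.16% of T cells without Cd8 (27.5% before). Itga1, the collagen-binding integrin alpha 1 chain (1.55 ± 0.31, adjusted p = 0.00892), Cd160 (1.90 ± 0.40, adjusted p = 0.0144), Ccr9 (1.46 ± 0.34, adjusted p = 0.0226), Cxcr6 (1.29 ± 0.27, adjusted p = 0.0129), Jaml (1.27), Gpr18 (1.30), Gpr34 (1.69) and Runx3 (1.01 ± 0.26, adjusted p = 0.0448) made up the rest. With every cell thinned to 800 UMIs, Itga1 (0.81, adjusted p = 0.135) and Ccr9 (0.64, adjusted p = 0.328) were not called in the edgeR fit, and with sums of at least 3 cells Ccr9 (0.068), Gpr18 (0.0629) and the effector gene Cst7 (0.0605) were not. The lowest level of Itgae in members, 4.54, lay above the highest in T cells without Cd8, 2.44.

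Of 14 cytotoxic genes tested, 7 were higher and none lower, with a median of 1.31. Ccl4, a chemokine of activated cytotoxic cells, was at 83.5, 4.86 and 9.01 UMIs per 10000 in members against 1.99, 1.24 and 0.516 (3.10 ± 0.48, edgeR adjusted p = 0.00202). Gzmk was at 2.41, 2.7 and 1.34 against 0.221, 0.414 and 0.199 (2.89 ± 0.44, edgeR adjusted p = 0.00188), above every other class in each library. In the duodenum that order rests on 3 UMIs in members, with Cd8a T cells without Cd8b1 close by at 2.06. Nkg7, a protein of cytotoxic granules, was at 15.3, 13 and 16.4 against 5.09, 9.24 and 3.71 (1.32 ± 0.32, adjusted p = 0.0285). Fasl, Cst7, Ctsw and Ccl3 were the others called.

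Gzma and Gzmb were not called, and their direction changed with the library: Gzma was at 30.2 UMIs per 10000 in ileal and 171 in jejunal T cells without Cd8, below and above the members' 52.2 and 44.4. Outside the lists, Actn2, an actin cross-linking protein, was higher in members by 3.0 ± 0.30 (edgeR adjusted p = 3.37e-05) and Fam241a by 2.37 ± 0.37 (adjusted p = 0.00202).

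Of 12 genes of other T and innate lymphoid cells, 3 were tested, Cd4 alone was called and lower in members, and the median was −0.75. Cd4, with 1 UMI in all members and 124 in T cells without Cd8, was lower by 6.98 ± 1.13 on the log2 scale (edgeR adjusted p = 0.00221). Among the leading genes lower in members, Tnfrsf4, the costimulatory receptor OX40, had 1 UMI against 112 (−6.61 ± 1.16, adjusted p = 0.00602), and Izumo1r, folate receptor 4, had 18 against 338 (−4.60 ± 0.47, adjusted p = 0.000106). Tnfsf8, the CD30 ligand, was lower by 3.62 ± 0.64 (adjusted p = 0.00488). Cd28 (−2.32 ± 0.32, adjusted p = 0.000902) and Ctla4 (−2.27, adjusted p = 0.00202) were lower than in this class although higher than in Trdc T cells.

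Tyrobp (−3.49 ± 0.47, edgeR adjusted p = 0.00089), Fcer1g (−2.82) and Ikzf2 (−2.15) were lower in members here too, and so lower than in all 3 classes. Ighm, the immunoglobulin mu heavy chain gene, was lower in members as well (−1.96 ± 0.40, adjusted p = 0.0125 by edgeR) and was also called without the barcodes of mixed RNA, with a UMI in 11.4% of members and 40.5% of T cells without Cd8 (3.9% and 16.0% after thinning). The enterocyte genes counted beside the rule were higher in ileal T cells without Cd8, at 141 UMIs per 10000 against 58.9 in members, with Fabp6 at 88.9 against 23.1. Members' Fabp6 was at 12.6 without the 9 barcodes of mixed RNA. The 88.9 still includes the 20 such barcodes among the 229 ileal T cells without Cd8, so these 2 values are not on a like footing. After thinning Fabp6 was found in 66.7% of ileal members and 69.9% of ileal T cells without Cd8. The part of these genes in this comparison was not tested. Without the barcodes that held another cell type's RNA 90 genes were called, and Ccl3 (adjusted p = 0.0527), Gpr18 (0.0527) and Fasl (0.0778) were not. Without the jejunum 97 were called, and Cd160 (0.0901), Ctsw (0.234), Jaml (0.115) and Runx3 (0.271) were not. DESeq2 did not call Ccl3 (0.156), Cst7 (0.24), Fasl (0.376), Gpr18 (0.181), Gpr34 (0.058) or Jaml (0.0997). With only these 2 classes fitted Fasl (0.115) and Gpr34 (0.169) were not called, nor were Cst7 (0.0504) and Runx3 (0.0617) without Cd4 UMIs. Runx3 was also not called without a gene filter (0.0639) or with at least 2 Cd8b1 UMIs (0.0675). Without the ileum 6 were called, among them Tyrobp, Fcer1g and Ikzf2, Cd4 and Tnfsf8 could not be tested, and the adjusted p of the other called genes named here was 0.182 (Ctla4) to 0.999 (Cst7).

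**Figure D3:**
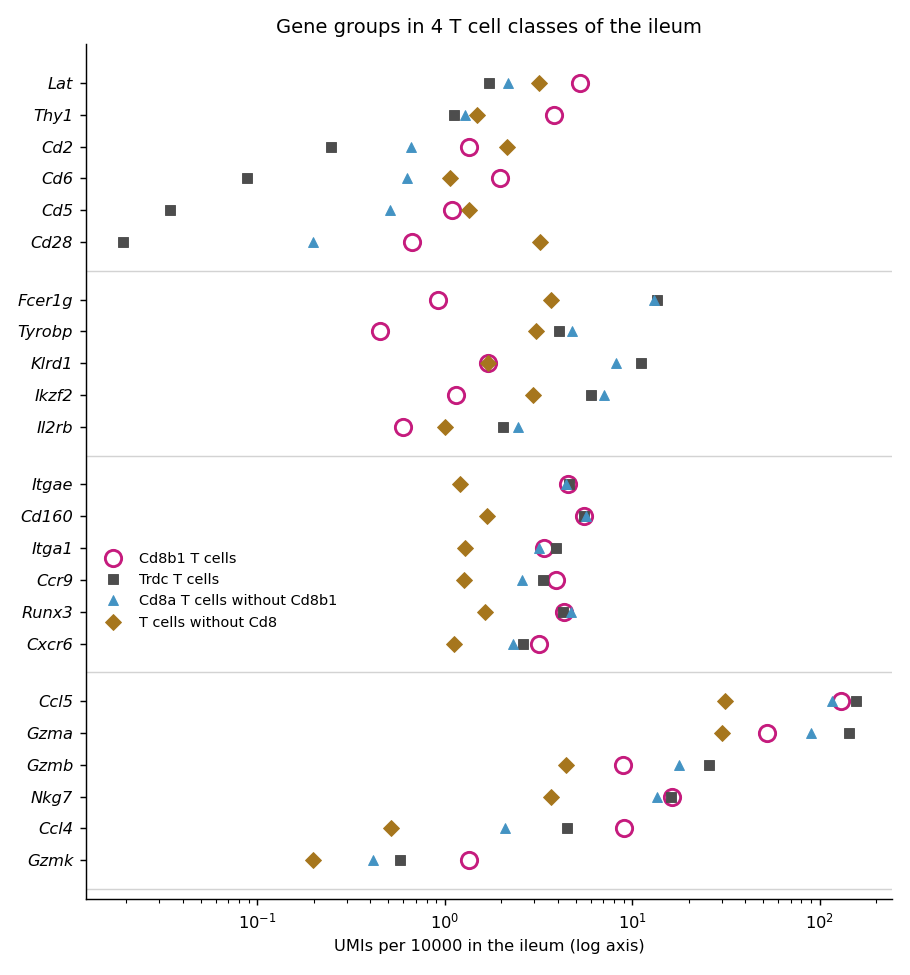
Levels of 23 genes in the ileum, in UMIs per 10000 on a log axis, in the 4 T cell classes, grouped from the top as signalling and costimulation, natural killer type and Helios, residency, and effector genes. In the residency group Cd8b1 T cells lie with Trdc T cells and Cd8a T cells without Cd8b1 (Itgae at 4.54, 4.59 and 4.44) and T cells without Cd8 lie lower (1.2), while in the natural killer group Fcer1g was at 0.922 in Cd8b1 T cells against 13.6 and 13.1.

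Receptor genes of the gamma chain differed by the constant gene. Tcrg-C1 (ENSMUSG00000076749, chromosome 13, 19214103 to 19217024) was at 0, 0.36 and 0.19 UMIs per 10000 in members and at 5.77, 11 and 7.39 in Trdc T cells (log2 fold change −5.03 ± 0.41, edgeR adjusted p = 3.71e-06). It was also called lower in members than in Cd8a T cells without Cd8b1, by −4.31 to −2.32 on the log2 scale over the alternatives. Tcrg-C2 (ENSMUSG00000076752, 19304649 to 19307551) was at 1.61, 5.22 and 4.36 in members and 3.12, 6.02 and 5.03 in Trdc T cells (−0.16 ± 0.26, adjusted p = 0.954). After thinning Tcrg-C1 was found in 1.8% of members (6.31% before) and 40.6% of Trdc T cells (82.0% before), and Tcrg-C2 in 29.1% (70.9% before) and 33.7% (80.2% before). The rule left out barcodes with Trdc UMIs but did not use the gamma genes, which are near-identical, so the split of reads between them is uncertain.

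T cells without Cd8 held less Tcrg-C2, at 1.11, 0.551 and 1.09 UMIs per 10000 (members higher by 2.09 ± 0.29, edgeR adjusted p = 0.000902), and Tcrg-C4 (1.75 ± 0.35, adjusted p = 0.00892). Variable segments gave few UMIs, since the kit reads the 3′ end. In the ileum, Trgv2 (chromosome 13, 19336573 to 19337167) was found in 101 of 312 members, 208 of 514 Trdc T cells, 58 of 155 Cd8a T cells without Cd8b1 and 30 of 229 T cells without Cd8.

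Delta segments (Trdv) were found in 7 of 312 ileal members against 91 of 514 Trdc T cells, with Trdv5 in 0 against 32. They were also found in 15 of 155 ileal Cd8a T cells without Cd8b1 and 18 of 229 ileal T cells without Cd8. These comparison classes thus held delta segment RNA in a larger share of cells than the members did. Alpha segments (Trav) were found in 54 ileal members, spread over 20 of 128 genes. Trav16n (chromosome 14, 53351028 to 53351621) was found in 25 of the 312 ileal members (8.01%), against 2 of 514, 2 of 155 and 3 of 229 in the other classes of the ileum and in 0 of 356 enterocyte barcodes, and in 0 of the 21 members of the other segments. Its near relative Trav16 was found in 4 ileal members and 14 Trdc T cells, so reads may be divided between them. Beta segments (Trbv) were found in 16 ileal members, with Trbv12-2 in 7. With 3 pooled mice and no receptor sequences, clones cannot be told apart from shared segment use.

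Cd8b1 T cells were not uniform among themselves, and the following splits of the 312 ileal members were made after their values were seen and are a description without a test. Fcer1g was found in 16, of which 10 held 5 or more UMIs and together 119 of the 126. Tyrobp was found in 7 of these 16 against 2 of the other 296, Klrd1 in 12 against 76 and Ms4a4b in 8 against 249. The Fcer1g UMIs were thus held by a small number of cells, whereas 156 of 233 Klrd1 UMIs lay outside these 16.

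A second split was by Klf2. Without the 9 barcodes of mixed RNA, 29 ileal members had a Klf2 UMI, with a median of 5470 UMIs, and 274 had none, with a median of 3778.5. The lymph node homing receptor gene Ccr7 was at 2.04 UMIs per 10000 in the first and 0.0189 in the second, S1pr1, the receptor for egress into blood, at 1.56 and 0.0189, and the transcription factor gene Lef1 at 3.24 and 0.104. Dapl1 was found in 10 of 29 cells and in 0 of 274. Ccr7 and S1pr1 were each found in 2 of the 274 cells, but Lef1 was found in 15 of 29 and 8 of 274, Tcf7 in 17 and 52 and Satb1 in 18 and 50, so not all genes of this kind kept to cells with Klf2.

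Residency and effector genes had the opposite order in that split. After thinning Itgae was found in 6.9% of cells with and 37.2% without Klf2, Cd160 in 10.3% and 35.0%, Tcrg-C2 in 6.9% and 31.4%, Cd7 in 20.7% and 60.2%, Gzma in 20.7% and 61.3%, Nkg7 in 27.6% and 75.5% and Ccl5 in 48.3% and 96.4%. Ms4a4b was found in 37.9% and 39.4% and Il7r in 24.1% and 19.3%, and so at close shares in both. Over all 312 ileal members, Ms4a4b was found in 257 cells, Itgae in 244 and Gzma in 208. Ms4a4b was found together with Itgae in 199 cells and with Gzma in 164. Whether these genes go together beyond such common detection was not tested. The cells with Klf2 were deeper, and thinning to 800 UMIs sets both parts to the same depth for the other genes. The split itself was made before thinning, so deeper cells were more likely to enter the part with Klf2. After thinning, 14 of the 29 still had a Klf2 UMI.

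**Figure D4:**
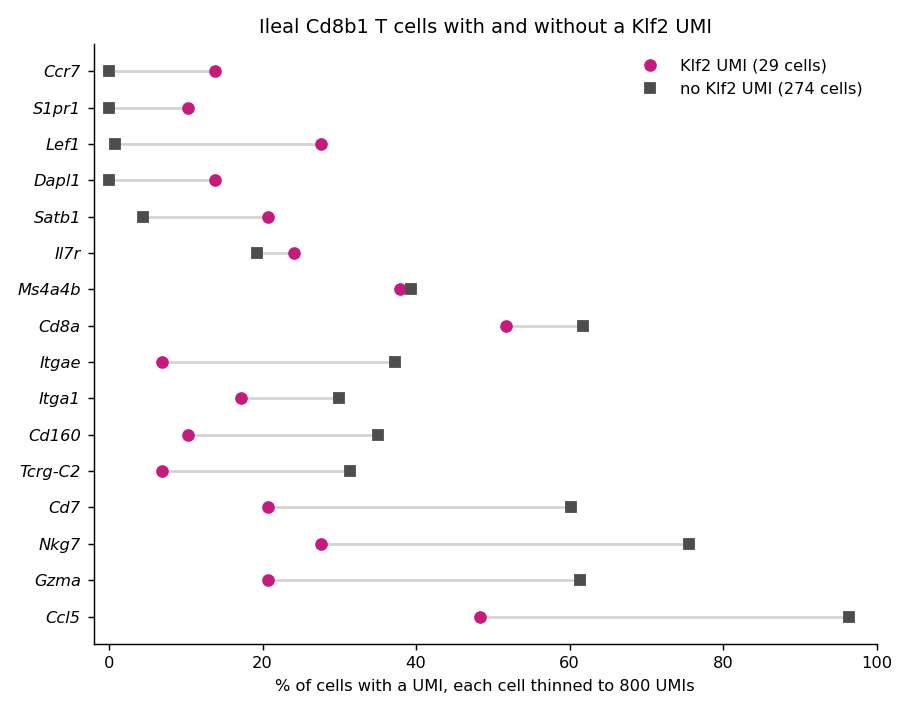
Percent of ileal Cd8b1 T cells with a UMI of each of 16 genes after thinning every cell to 800 UMIs, in 29 cells with and 274 cells without a Klf2 UMI before thinning. Lef1 was found in 27.6% of cells with Klf2 and 0.73% without, and Ccl5 in 48.3% and 96.4%, while Ms4a4b was found in 37.9% and 39.4%.

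Across segments the members could be described by level only. Of 183 genes of the gene lists with at least 20 UMIs in members, 38 differed at least 2-fold between ileum and duodenum with an interval clear of 1, and 23 of these were lower and 15 higher in the ileum. The same count was not made over all genes, so no background share stands beside it. The duodenal values rest on 4 cells, and the intervals cover counting error of UMIs without the spread between cells. Hspa1b, a heat shock protein, was at 46.6 (35.4 to 60.2), 0.36 and 0.219 UMIs per 10000 from duodenum to ileum. Hspa1a was at 45, 0.72 and 0.285, with its 56 duodenal UMIs in 3 of the 4 cells, 39 of them in 1.

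Rgs2, a regulator of G protein signals, was at 12, 1.98 and 0.768 UMIs per 10000, and Ifi27l2a, an interferon-induced gene, at 6.42, 3.42 and 0.593. Cd69, an early activation and retention marker, was at 17.7 (11.1 to 26.7), 1.08 and 1.95, with UMIs in 4 of 4, 5 of 17 and 134 of 312 cells. Ccl4 was at 83.5, 4.86 and 9.01, with 87 of its 104 duodenal UMIs in 1 cell. Heat shock genes were also higher in the duodenum in the other classes, with Hspa1b at 4.92, 6.17 and 12 UMIs per 10000 in duodenal Trdc T cells, Cd8a T cells without Cd8b1 and T cells without Cd8, in each case in 2 or 3 cells.

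The largest differences in the other direction were genes of epithelial and plasma cells. Zg16 was at 4.82, 4.5 and 122 UMIs per 10000, Igha at 4.01, 1.62 and 36.6, Krt8 at 0.803, 1.44 and 7.45 and Fabp2 at 2.41, 5.4 and 17.3, and Tff3 and Fcgbp, with 0 UMIs in the duodenum, were at least 12.7-fold and 8.1-fold higher in the ileum. Without the 9 ileal barcodes of mixed RNA, Zg16 was at 9.93, Igha at 0.57, Krt8 at 5.08 and Fabp2 at 15.2. Goblet, Paneth, tuft and enteroendocrine markers together stood at 9.63, 13 and 193 UMIs per 10000, B and plasma cell markers at 5.62, 3.42 and 53.5, and myeloid markers at 2.41, 1.62 and 1.56, with 6 of 12 myeloid markers at 0 in the ileum. Itgae (4.82, 5.58 and 4.54), Cd8a and Lat, in contrast, did not differ between segments beyond their intervals.

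**Figure D5:**
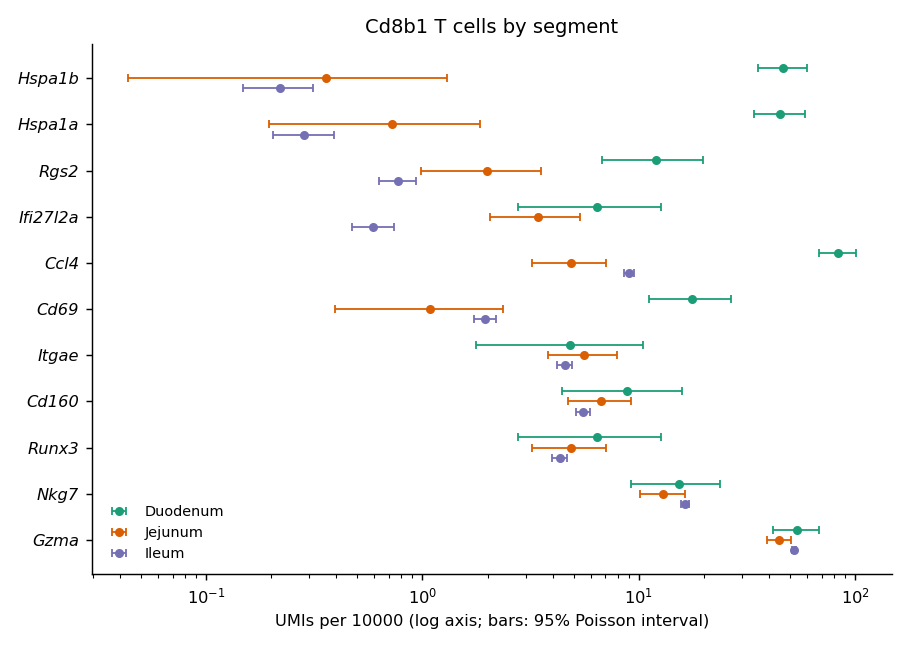
Level of 11 genes in Cd8b1 T cells of the duodenum (4 cells), jejunum (17) and ileum (312), in UMIs per 10000 on a log axis with exact Poisson 95% intervals as bars. Hspa1b, Hspa1a and Cd69 were higher in the duodenum (46.6, 45 and 17.7) than in the ileum (0.219, 0.285 and 1.95), while Itgae, Cd160, Runx3 and Nkg7 had overlapping intervals.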

How the data were processed

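Single-cell 3′ libraries (10x Genomics, v3 chemistry) were made by the authors from 3 segments and processed with Cell Ranger 3.0.2 on GRCm38 (mm10). The deposited values are whole UMI counts per gene and barcode for 31053 genes, without normalization or the study's later filters. Its limits on UMIs and mitochondrial share are part of the rule, and that of 6000 genes would remove 1 member. All 3 libraries were assigned by their labels. Levels were computed per 10000 UMIs of a sum of cells, with 95% intervals from the exact Poisson distribution for levels and the exact binomial one for shares (Python 3.11.15, numpy 2.4.6, scipy 1.17.1). Cells were thinned to 800 UMIs with a fixed seed.

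Class comparisons used edgeR 4.0.16 in R 4.3.3 on UMIs summed per library and class (11 sums of at least 10 cells). Low genes were removed with filterByExpr, sizes scaled by TMM and the quasi-likelihood test made with a term for the library, which left 5 residual degrees of freedom, and p-values were adjusted by Benjamini-Hochberg with a threshold of 0.05. Genes of the rule were left out of the calls. The class sums of a library come from the same pooled mice, so p-values measure only the spread between these sums, which may be technical. Doublets were not removed. The alternative without likely doublets left out barcodes with 2 or more UMIs of Cd79a, Cd79b, Ms4a1, Cd74, Jchain, Lyz2 and Cst3 together. It also left out the 5% of T cells with the most UMIs in each library. It kept 224 of 312 ileal members and 313 of 514 ileal Trdc T cells.

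Members and gene lists were chosen with earlier results of these data known. Named are genes of those lists, the 6 leading genes each way between segments, and the commonest variable segments. Also named are the 10 (5 beyond the comparison with Trdc T cells) leading genes each way among those called with at least 50 UMIs. These had the same direction in the jejunum and the ileum, while the duodenum was not used and could differ. Positions come from GENCODE M21, in which 31011 gene IDs were found. Data were simulated for 2475 genes with the same spread for each, which real genes do not share. In them, changes of a log2 of 2 were recovered in 100%, 97.8% and 96.8% for the comparisons in order, with 7, 4 and 1 false calls. Alternatives covered normalization, gene filter, DESeq2 1.42.0, the block, the classes fitted, cells per sum, cell filters, thinning and leaving out each library.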

Additional observations from a re-analysis of the deposited data

Results flagged for a closer look

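For a few genes the ratio of Cd8b1 T cells to another class lay above 1 in 1 library and below 1 in the other, with both intervals clear of 1; whether the libraries differ was not tested, since each segment is 1 library. Against Trdc T cells, Cd8a had a ratio of 1.45 in the ileum and 0.702 in the jejunum, and Jun of 0.781 and 2.07. Against Cd8a T cells without Cd8b1, the ileal ratios were 1.11 for Ccl5, 1.21 for Nkg7, 1.25 for Epcam, 0.894 for Junb and 0.836 for Ly6e, with jejunal ratios of 0.665, 0.561, 0.329, 1.83 and 1.63. Against T cells without Cd8, they were 1.73 for Gzma, 2.02 for Gzmb, 2.49 for Cd7, 1.22 for Cd69, 1.41 for Rgs1 and 0.838 for Ly6e in the ileum, and 0.26, 0.249, 0.342, 0.28, 0.611 and 1.64 in the jejunum. In the jejunum these are 17 members.

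In no comparison were 30 barcodes that met every other criterion and held UMIs of both Cd8b1 and Trdc, 4 in the jejunum and 26 in the ileum, with a median of 4515.5 UMIs.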

How the results depend on the processing

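The alternatives gave 1660 values for 92 results, each of them a gene called in 1 comparison, so a gene can enter more than once. Of these values, 1439 kept direction and an adjusted p under 0.05, 211 kept the direction only and 10 changed direction. The last were H2-Aa against Cd8a T cells without Cd8b1 (log2 fold change 0.37 with DESeq2, −3.05 to 6.44 over the fits without 1 library) and against T cells without Cd8 (0.69 with DESeq2, −2.57 to 6.999 without 1 library), Igha against the former (−0.57 without likely doublets, −0.37 without barcodes of mixed cells) and the latter (−0.022 without barcodes of mixed cells, −0.81 to 6.22 without 1 library), and against the latter also Igkc (−0.24 without likely doublets) and Cst7 (−0.11 to 1.95 without 1 library). In those ranges the fit without the ileum was the one that changed direction. Igha and Igkc rest on 1 barcode; for the others the cause was not tested.

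Counts of called genes, given against Trdc T cells, Cd8a T cells without Cd8b1 and T cells without Cd8, were 48, 29 and 86. They were 161, 117 and 230 without a gene filter, 254, 54 and 130 with only the compared classes fitted, 272, 183 and 683 with sums of at least 20 cells, 107, 70 and 198 with at most 20% mitochondrial UMIs, 171, 152 and 400 with at least 3000 UMIs, 88, 59 and 144 with at least 2 Cd8b1 UMIs, 202, 135 and 312 with enterocyte genes below 0.5%, 118, 86 and 316 without Cd4 UMIs, and 15, 10 and 31 after thinning. DESeq2 called 18 and 49 in the latter 2, and without likely doublets 75 and 58 were called in the first 2. Leaving out 1 library gave 12 to 175, 4 to 129 and 6 to 344. With sums of at least 20 cells, with at least 2 Cd8b1 UMIs (9 jejunal members) and without the jejunum, members had the ileal sum alone, assumed to vary like the other classes. The number of genes tested moved with the smallest sum and the gene filter, so these counts are not shares of the same number. Against Trdc T cells it was 2465 in the main fit, 16060 without a gene filter and 306 after thinning. It was 7263 without the duodenum and 9562 without the jejunum. In the fit with no replicate block, which gives up the pairing of classes within a library, 16, 4 and 17 were called. There 28 of the 92 results of a gene in 1 comparison kept their call. Chosen after seeing the data, sums of at least 3 cells gave 50, 27 and 72 and leaving out barcodes of mixed cells 57, 39 and 90. Between segments, 16 rather than 38 genes passed after thinning.

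Depth limits the jejunum and the duodenum most: a count of 0 there allows 0.54 and 2.41 UMIs per 10000.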
